A study of Caenorhabditis elegans with 12 samples.

Results

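The genes described here are car-1 and the Y-box genes cey-1, cey-2, cey-3 and cey-4 of Caenorhabditis elegans, together with cgh-1, read in early embryos by PAT-seq, which sequences the 3' ends of polyadenylated RNA and measures the poly(A) tail on each. They were chosen by name among the deposited gene features, and a gene counted only where its feature names that gene alone. Of the 6 names, 5 passed this rule, out of 28096 features that name 1 gene and 31753 features in all. The feature of cgh-1 is merged with C07H6.10, a small nucleolar RNA gene in the RefSeq table, so its values are given beside the others, always as those of a merged feature, and are in no count of the 5 genes.

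CGH-1 is a DEAD-box RNA helicase of the family of yeast Dhh1 and human DDX6, which hold mRNAs back from translation and help to decap them. CAR-1 is a partner of CGH-1 with an Lsm domain, of the family of fly Trailer hitch and vertebrate LSM14, and is needed for cytokinesis in the early embryo. The CEY proteins carry a cold-shock domain, bind mRNA broadly and package it, and CEY-2 and CEY-3 are known from the germ line. Oocytes and early embryos store maternal mRNAs in particles that hold these proteins, and lengthening or shortening of the poly(A) tail is a main way in which such mRNAs are switched on and off.

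There were 6 groups of 2 libraries each. They were embryos of wild-type N2, of N2 mothers fed double-stranded RNA of mex-5, gld-2, gld-3 or pos-1, and of the mex-6(pk440) mutant. Zinc finger proteins that bind maternal RNA are the products of pos-1, mex-5 and mex-6, while GLD-2 adds poly(A) to mRNA in the cytoplasm and GLD-3 binds GLD-2. All libraries share the N2 background and a stage given as over 90% from the zygote to 24 cells. The labels repeat 2 feeding conditions for every sample, E. coli OP50 and, for RNAi, E. coli HT115(DE3) that makes the double-stranded RNA after 6 h of IPTG, so food and RNAi cannot be told apart. RNAi by feeding acts on the mother, and each library is RNA of many embryos. Nothing in the labels says that paired libraries had cultures of their own, and the p-values therefore measure the spread between these libraries only, which may be technical.

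Each library held between 4613974 and 10229871 reads on gene features, of which 35.4% to 56.7% fell on ribosomal RNA. The gene that each treatment aims at was read lower than in N2 in its own group in all 5 cases, at 2.36% of the N2 level for mex-6 in mex-6(pk440), 8.07% for mex-5, 8.46% for gld-3, 15.5% for pos-1 and 44.3% for gld-2. The gld-2 mRNA stood at 5.54 and 3.31 CPM (reads of the gene scaled to a common library size) in the gld-2 RNAi libraries, on 57 and 15 reads, against 12.3 and 8.30 CPM in N2, so RNA of the target remained there. The summed level of 10 late embryo and larval tissue markers was 314 to 323 CPM in N2, 565 to 657 CPM in gld-2 RNAi, 1064 to 1070 CPM in mex-5 RNAi, 441 to 455 CPM in pos-1 RNAi, 394 to 463 CPM in gld-3 RNAi and 293 to 333 CPM in mex-6(pk440). In pos-1 RNAi, though, edgeR at an adjusted p under 0.05 found 5 of these 10 lower and 1 higher than in N2 (median log2 difference -0.92). Of all genes tested for level, 12.2% passed there. Over 13 sperm markers the summed level was 67.8 to 96.1 CPM in N2, 80.9 to 83.0 CPM in gld-2 RNAi, and lower elsewhere, down to 7.20 to 8.64 CPM in mex-5 RNAi. Over 8 yolk and adult intestine markers it was 260 to 420 CPM in N2, 529 to 553 CPM in gld-2 RNAi and 306 to 313 CPM in mex-5 RNAi. It was lower than in N2 in pos-1 RNAi (31.5 to 86.9 CPM), gld-3 RNAi (140 to 156 CPM) and mex-6(pk440) (111 to 137 CPM). The sum in mex-5 RNAi hides opposite changes, since 6 of these 8 were lower and 2 higher than in N2 by edgeR (median log2 difference -2.32). Of all genes tested for level, 30.8% passed in mex-5 RNAi. None of the markers read on these 3 lists was at 0 in all libraries. The median tail over the genes tested was 45.8 and 45.97 nt in the gld-2 RNAi libraries, 44.2 and 40.4 nt in N2, and 42.3 nt in each mex-6(pk440) library, within a range of 40.4 to 46.9 nt over all libraries.

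The lower levels of these genes lay mostly in the gld-2 RNAi embryos. There, against N2, the mRNAs of cey-3, cey-2 and car-1 fell to 16.6%, 38.1% and 47.0% of the N2 level, cey-1 rose 1.85-fold, and cey-4 did not pass the test. The poly(A) tail of car-1 grew longer by 19.4 nt in the same embryos. That makes 4 of the 5 genes called in level at an adjusted p under 0.05, while 27.2% of all 9403 genes tested for level were called in this comparison, and 1 of 5 called in tail length, while 0.238% of all 5471 genes tested for tail length were. The median change of the 5 genes was -1.09 on the log2 scale in level, beside -0.01 over all genes tested. In RNA from whole embryos, fewer cells that hold an mRNA and less of it in each cell cannot be told apart. Of the 10 late embryo and larval markers, 7 rose in level in the same comparison, and of the sperm and yolk markers 1 of 12 tested fell and 1 of 8 rose. Their part in the results for gld-2 RNAi was not tested.

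**Figure D1:**
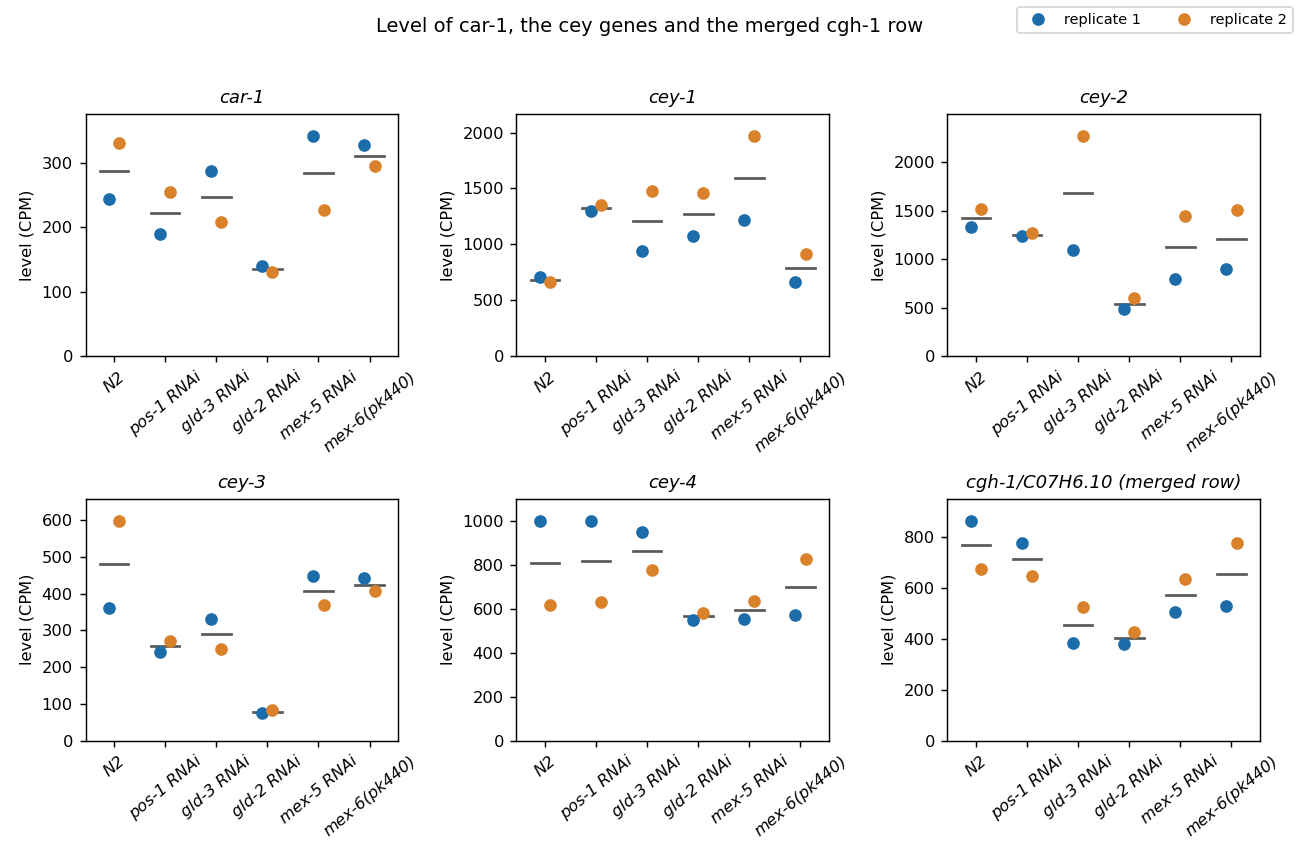
Level of each gene and of the merged cgh-1 feature in CPM (vertical axis, linear, from 0) in the 6 groups, with 1 point per library, coloured by replicate, and a line at the mean of the 2. Both gld-2 RNAi libraries are the lowest of the 12 for car-1, cey-2 and cey-3, at 131 to 139, 485 to 603 and 75.3 to 83.9 CPM.

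The car-1 gene (NM_060853) lies at chrI:12904466-12905637 on the plus strand of ce10. Its level, given for replicate 1 and then replicate 2, was 244 and 331 CPM in N2, 189.9 and 255 in pos-1 RNAi, 287 and 208 in gld-3 RNAi, 139 and 131 in gld-2 RNAi, 341 and 227 in mex-5 RNAi, and 328 and 295 in mex-6(pk440). Both gld-2 RNAi libraries lay below the other 10, and the N2 range overlapped with that of each remaining group. Against N2 the fitted level in gld-2 RNAi fell by 1.09 on the log2 scale (SE 0.26, lower in 2 of 2 libraries; edgeR adjusted p = 0.00916). This call was lost without gld-2 RNAi replicate 1 (edgeR adjusted p = 0.0756), without gld-2 RNAi replicate 2 (0.0653) or without N2 replicate 2 (0.0653). The gld-2 RNAi level was also lower than that of mex-6(pk440), by 1.21 on the log2 scale (edgeR adjusted p = 0.00803). It was lower than those of mex-5 RNAi by 1.07 (edgeR adjusted p = 0.0101) and gld-3 RNAi by 0.88 (0.0469). Each of these calls was lost without either gld-2 RNAi library. In the order of the group means, mex-6(pk440), N2, mex-5 RNAi, gld-3 RNAi, pos-1 RNAi and gld-2 RNAi, no neighbouring pair differed past the threshold, and the pair of pos-1 RNAi and gld-2 RNAi came closest (log2 difference 0.72, SE 0.26; edgeR adjusted p = 0.0551). That pair was called under 10 of 19 alternatives, most of which left out a library of another group. Among the 10 were the replicate block (edgeR adjusted p = 0.0384) and no low-count filter (0.00439). It was not called with RLE scaling (edgeR adjusted p = 0.0908), on these 4 libraries alone (0.0686) or by DESeq2 (DESeq2 adjusted p = 0.0983). The log2 difference was 0.99 and 0.59 without pos-1 RNAi replicate 1 and replicate 2, and 0.70 and 0.74 without gld-2 RNAi replicate 1 and replicate 2. Over the 6 groups together the level of car-1 varied (edgeR adjusted p = 0.0213, and 0.137 without either one of the gld-2 RNAi libraries).

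The mean car-1 tail was 35.5 and 35.0 nt in N2, 33.3 and 29.2 nt in pos-1 RNAi, 26.2 and 28.7 nt in gld-3 RNAi, 53.96 and 55.3 nt in gld-2 RNAi, 30.97 and 33.1 nt in mex-5 RNAi, and 28.2 and 28.2 nt in mex-6(pk440). The gld-2 RNAi libraries thus stood above the other 10 in tail length and below them in level. The tail was longer in gld-2 RNAi than in N2 by 19.4 nt (SE 1.88, 95% interval 15.3 to 23.5 nt; limma adjusted p = 0.00167), in 2 of 2 libraries. It was also longer in gld-2 RNAi than in each other group, by 23.4 nt over pos-1 RNAi (limma adjusted p = 2.23e-04), 27.2 nt over gld-3 RNAi (4.15e-05), 22.6 nt over mex-5 RNAi (1.61e-04) and 26.5 nt over mex-6(pk440) (5.64e-05). Those 4 calls held when any single library was left out, and the call against N2 was lost only without gld-2 RNAi replicate 2, where the difference was 18.7 nt (limma adjusted p = 0.0709). After subtraction of the median tail of each library, here called centred, car-1 was called in all 5, and the difference from N2 was 15.8 nt (limma adjusted p = 0.00251). The 5 comparisons share the gld-2 RNAi libraries. In N2 the car-1 tail was longer than those of 21.6% of the genes tested, whose median was 42.4 nt.

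**Figure D2:**
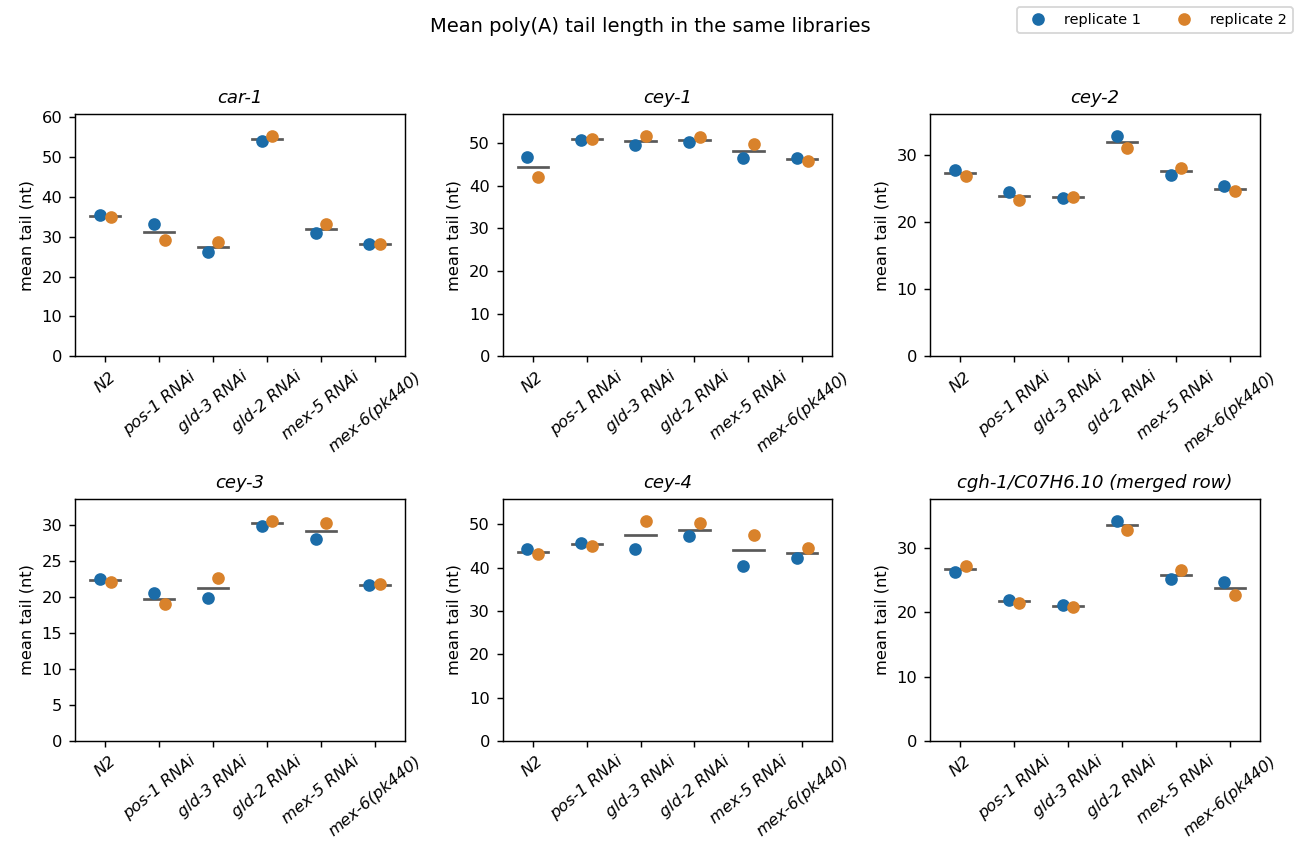
Mean poly(A) tail in nt (vertical axis) of each gene and of the merged cgh-1 feature in the 6 groups, with 1 point per library, coloured by replicate, and a line at the mean of the 2. The car-1 tails of gld-2 RNAi, at 53.96 and 55.3 nt, stand apart from the other 10 libraries, which lie between 26.2 and 35.5 nt.

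All 3 poly(A) sites of car-1 lie downstream of its annotated end, in peaks that the authors called at chrI:12905935-12906035, chrI:12906021-12906121 and chrI:12906118-12906218. The tail at the most distal site was longer than that at the most proximal one in 12 of 12 libraries, by 5.00 to 16.6 nt with a median of 10.3 nt. At the proximal site the tail was 27.3 and 29.1 nt in N2 and 51.5 and 49.9 nt in gld-2 RNAi, a difference of 22.5 nt (SE 2.14; limma adjusted p = 0.0119). At the distal site it was 43.1 and 39.2 nt in N2 and 56.5 and 58.6 nt in gld-2 RNAi, a difference of 16.4 nt (SE 2.00; limma adjusted p = 0.0276). The middle site differed by 16.4 nt (SE 3.68; limma adjusted p = 0.0941). The tail was therefore longer in gld-2 RNAi at both outer sites, while 0.099% of all 7068 sites tested were called in this comparison. The distal site took 43.0% ± 6.51 of the car-1 reads in N2 and 54.3% ± 0.255 in gld-2 RNAi (SD, n = 2), and no change of site use was called for car-1 (edgeR adjusted p = 1.00).

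**Figure D3:**
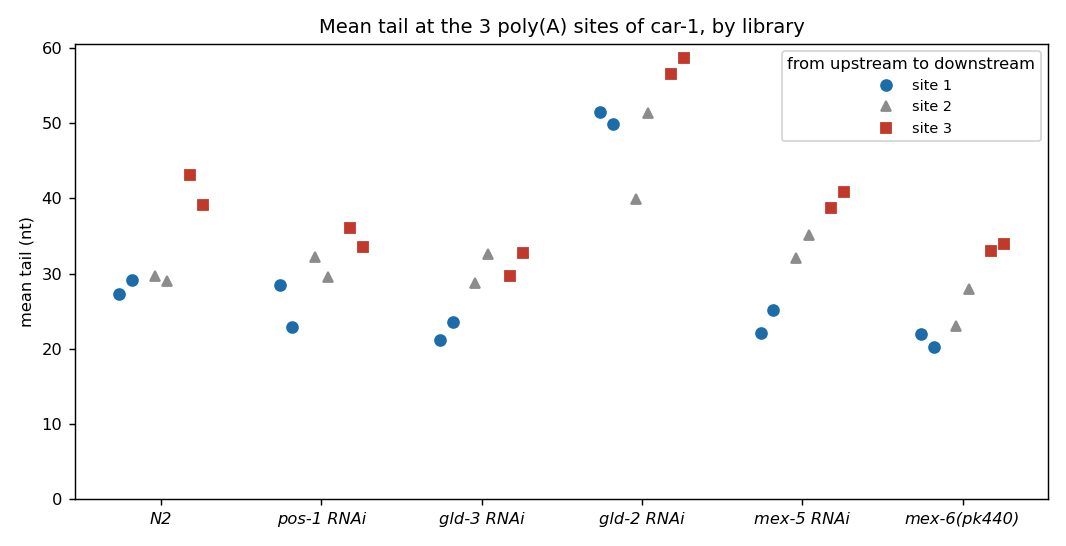
Mean poly(A) tail in nt (vertical axis) at each of the 3 poly(A) sites of car-1, numbered from proximal (site 1) to distal (site 3), in the 6 groups, with 1 point per library. The tail at the distal site exceeds that at the proximal site in all 12 libraries, and the gld-2 RNAi libraries are longest at both.

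The merged feature of cgh-1 and C07H6.10 (NM_066245/NR_003427) has its cgh-1 gene at chrIII:7496196-7497728 on the minus strand, and both of its poly(A) sites lie 772 and 843 bases downstream of the annotated end. Its level was 864 and 676 CPM in N2, 778 and 647 in pos-1 RNAi, 385 and 524 in gld-3 RNAi, 379 and 426 in gld-2 RNAi, 507 and 636 in mex-5 RNAi, and 531 and 776 in mex-6(pk440). The gld-2 RNAi and gld-3 RNAi libraries overlapped below the N2 libraries. Against N2 the level of the merged feature fell by 0.94 on the log2 scale in gld-2 RNAi (SE 0.24; edgeR adjusted p = 0.0137), a call lost without N2 replicate 1 (edgeR adjusted p = 0.0943), gld-2 RNAi replicate 1 (0.140) or gld-2 RNAi replicate 2 (0.0517). In gld-3 RNAi the log2 difference from N2 was -0.76 (edgeR adjusted p = 0.0695). The tail of the merged feature was 26.2 and 27.3 nt in N2, 21.95 and 21.5 nt in pos-1 RNAi, 21.1 and 20.9 nt in gld-3 RNAi, 34.3 and 32.9 nt in gld-2 RNAi, 25.2 and 26.6 nt in mex-5 RNAi, and 24.8 and 22.7 nt in mex-6(pk440). Again the 2 libraries of gld-2 RNAi had longer tails than the other 10. The difference in tail from N2 was 6.85 nt (SE 1.397; limma adjusted p = 0.0609). With centred libraries that difference was 3.26 nt (limma adjusted p = 0.393). The tail in gld-2 RNAi was longer than in gld-3 RNAi by 12.6 nt (limma adjusted p = 0.00233), in pos-1 RNAi by 11.9 nt (0.00317), in mex-6(pk440) by 9.85 nt (0.00816) and in mex-5 RNAi by 7.69 nt (0.0231). The call against gld-3 RNAi was lost only on these 4 libraries alone (limma adjusted p = 0.0614), and that against pos-1 RNAi only without pos-1 RNAi replicate 2 (0.102). Those against mex-6(pk440) and mex-5 RNAi were lost without any one of the 4 libraries compared (limma adjusted p 0.0667 to 0.177) and with centred libraries (6.26 nt at 0.0993 and 6.31 nt at 0.102), and that against mex-5 RNAi also without either pos-1 RNAi library (0.0514 and 0.0524), with weights by reads (0.0530) and on these 4 libraries alone (0.148).

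The germline Y-box gene cey-3 (NM_059230, chrI:5571959-5572920, minus strand) had the largest fall among the 5 genes. Its level was 362 and 599 CPM in N2, 243 and 270.3 in pos-1 RNAi, 330.1 and 249.7 in gld-3 RNAi, 75.3 and 83.9 in gld-2 RNAi, 447 and 368 in mex-5 RNAi, and 442 and 407 in mex-6(pk440). Both gld-2 RNAi libraries lay below the other 10, and both pos-1 RNAi and both gld-3 RNAi libraries lay below both N2 libraries. Against N2 the level fell by 2.59 on the log2 scale in gld-2 RNAi (SE 0.26; edgeR adjusted p = 9.95e-05), which put cey-3 at place 58 from the lowest among the 9403 genes tested. This call held under all 19 alternatives, with log2 differences between -2.93 and -2.22. The gld-2 RNAi level was lower than those of pos-1 RNAi by 1.69 on the log2 scale (edgeR adjusted p = 4.21e-04), of gld-3 RNAi by 1.87 (0.00128), of mex-5 RNAi by 2.36 (7.44e-05) and of mex-6(pk440) by 2.41 (3.50e-04), and no left-out library ended any of these. From the highest group mean the order was N2, mex-6(pk440), mex-5 RNAi, gld-3 RNAi, pos-1 RNAi and gld-2 RNAi, and only the last neighbours differed past the threshold.

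The cey-3 tail was 22.5 and 22.1 nt in N2, 20.4 and 18.998 nt in pos-1 RNAi, 19.8 and 22.6 nt in gld-3 RNAi, 29.9 and 30.6 nt in gld-2 RNAi, 27.98 and 30.2 nt in mex-5 RNAi, and 21.6 and 21.7 nt in mex-6(pk440). In N2 this tail was longer than those of only 1.61% of the genes tested. The gld-2 RNAi and mex-5 RNAi libraries overlapped and lay above the other 8. Against N2 the difference was 7.91 nt in gld-2 RNAi (SE 1.65; limma adjusted p = 0.0609) and 6.79 nt in mex-5 RNAi (limma adjusted p = 0.0988), neither past the threshold. With at least 50 reads per library asked for, the first passed (limma adjusted p = 0.0492), and on log2 tails both passed (0.0163 and 0.0239). Of the other pairs, 5 were called for the cey-3 tail, gld-2 RNAi over pos-1 RNAi by 10.48 nt (limma adjusted p = 0.0119), over gld-3 RNAi by 9.01 nt (0.0350) and over mex-6(pk440) by 8.54 nt (0.0296), and mex-5 RNAi over pos-1 RNAi by 9.36 nt (0.0249) and over gld-3 RNAi by 7.89 nt (0.0385). Each of the 5 was lost when any one of the 4 libraries compared was left out, with limma adjusted p between 0.0530 and 0.314, and some without libraries of other groups. With centred libraries the difference of gld-2 RNAi from mex-6(pk440) was 4.95 nt (limma adjusted p = 0.111) and that from N2 was 4.32 nt (0.166). The rest of the 5 calls held when centred. For gld-2 RNAi they were 10.0 nt over pos-1 RNAi (limma adjusted p = 0.00358) and 7.93 nt over gld-3 RNAi (0.0280). For mex-5 RNAi they were 10.3 nt over pos-1 RNAi (limma adjusted p = 0.00414) and 8.19 nt over gld-3 RNAi (0.00991). Weights by reads ended the calls of gld-2 RNAi against mex-6(pk440), gld-3 RNAi and pos-1 RNAi (limma adjusted p = 0.0979, 0.155 and 0.0819).

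The other germline Y-box gene, cey-2 (NM_059244, chrI:5619605-5620498, plus strand), also fell in gld-2 RNAi. Its level was 1329 and 1523 CPM in N2, 1238 and 1269 in pos-1 RNAi, 1097 and 2270.2 in gld-3 RNAi, 485 and 603 in gld-2 RNAi, 796 and 1448 in mex-5 RNAi, and 898 and 1512 in mex-6(pk440). Both gld-2 RNAi libraries were the lowest, and the replicates of gld-3 RNAi, mex-5 RNAi and mex-6(pk440) lay far apart. The gld-2 RNAi level was lower than that of gld-3 RNAi, by 1.63 on the log2 scale (edgeR adjusted p = 0.0114). It was lower than those of pos-1 RNAi by 1.20 (edgeR adjusted p = 0.0219) and mex-6(pk440) by 1.15 (0.0359). Each of these calls was lost without gld-2 RNAi replicate 1. Against N2 the level fell by 1.39 on the log2 scale in gld-2 RNAi (SE 0.35; edgeR adjusted p = 0.0121), a call lost without gld-2 RNAi replicate 1 (edgeR adjusted p = 0.123). By group means the order was gld-3 RNAi, N2, pos-1 RNAi, mex-6(pk440), mex-5 RNAi and gld-2 RNAi, and of the neighbours only the last pair differed (log2 difference 1.04; edgeR adjusted p = 0.0488, lost without either gld-2 RNAi library, N2 replicate 1 or mex-5 RNAi replicate 2, at 0.268, 0.0925, 0.0520 and 0.289, and with RLE scaling, at 0.0610).

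The cey-2 tail was 27.8 and 26.9 nt in N2, 24.5 and 23.3 nt in pos-1 RNAi, 23.6 and 23.8 nt in gld-3 RNAi, 32.8 and 30.96 nt in gld-2 RNAi, 27.0 and 28.1 nt in mex-5 RNAi, and 25.3 and 24.6 nt in mex-6(pk440). In gld-2 RNAi both libraries had longer cey-2 tails than the other 10, by a narrower gap than for car-1. The difference from N2 was 4.54 nt (SE 1.23; limma adjusted p = 0.121). Tails in gld-2 RNAi were longer than in pos-1 RNAi by 7.96 nt (limma adjusted p = 0.0119), gld-3 RNAi by 8.18 nt (0.0129) and mex-6(pk440) by 6.93 nt (0.0244), and each of these 3 calls was lost when any one of the 4 libraries compared was left out (limma adjusted p 0.0542 to 0.232). With centred libraries the cey-2 tail differed from mex-6(pk440) by 3.34 nt (limma adjusted p = 0.314), from gld-3 RNAi by 7.10 nt (0.0722) and from N2 by 0.95 nt (0.813), so that only the call against pos-1 RNAi held (7.48 nt, 0.0349). Both cey-2 and cey-3 have 1 poly(A) site, 73 and 59 bases past the annotated end. The labels and file headers do not say how reads of these related genes were told apart.

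The Y-box gene cey-1 (NM_063965, chrII:11039965-11041069, minus strand) moved the other way. Its level was 706 and 665 CPM in N2, 1298 and 1349 in pos-1 RNAi, 941 and 1478 in gld-3 RNAi, 1076 and 1460.3 in gld-2 RNAi, 1215 and 1968 in mex-5 RNAi, and 665 and 913 in mex-6(pk440). The 8 RNAi libraries all lay above both N2 libraries, and mex-6(pk440) overlapped with N2. Against N2 the level rose 2.32-fold in mex-5 RNAi (log2 1.21, SE 0.28; edgeR adjusted p = 0.00530), 1.93-fold in pos-1 RNAi (log2 0.95, SE 0.28; edgeR adjusted p = 0.0397) and 1.85-fold in gld-2 RNAi (log2 0.89, SE 0.28; edgeR adjusted p = 0.0309). In gld-3 RNAi the log2 difference was 0.82 (edgeR adjusted p = 0.0837). Since N2 is in all of these comparisons, each rests on the same 2 control libraries, grown on another food than the RNAi groups.

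Left-out libraries ended each of the 3 level calls for cey-1 against N2. The mex-5 RNAi call was lost without mex-5 RNAi replicate 2 (log2 0.87; edgeR adjusted p = 0.0561). For pos-1 RNAi it was lost without either N2 library (edgeR adjusted p = 0.109 and 0.148) or either pos-1 RNAi library (0.0688 and 0.109). For gld-2 RNAi it was lost without N2 replicate 1 (edgeR adjusted p = 0.107), N2 replicate 2 (0.121) or gld-2 RNAi replicate 2 (0.178). By group means the order of cey-1 was mex-5 RNAi, pos-1 RNAi, gld-2 RNAi, gld-3 RNAi, mex-6(pk440) and N2, with no neighbours apart past the threshold. Over the 6 groups together its level varied (edgeR adjusted p = 0.0176), a call that held under all 17 alternatives. The summed level of the late embryo and larval markers was also above N2 in all 4 RNAi groups and overlapped with N2 in mex-6(pk440). In pos-1 RNAi, however, edgeR called 5 of the 10 markers lower and 1 higher (median log2 difference -0.92), while 12.2% of all genes were called. The sum there does not describe most of these markers. Their part in the cey-1 levels was not tested.

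The cey-1 tail was 46.7 and 42.0 nt in N2, 50.8 and 51.1 nt in pos-1 RNAi, 49.5 and 51.7 nt in gld-3 RNAi, 50.3 and 51.4 nt in gld-2 RNAi, 46.4 and 49.8 nt in mex-5 RNAi, and 46.6 and 45.9 nt in mex-6(pk440). The N2 replicates lay further apart than those of pos-1 RNAi or gld-2 RNAi, and cey-1 passed in none of the 15 pairs of groups by limma. In gld-2 RNAi the tail difference from N2 was 6.47 nt (limma adjusted p = 0.114). Of its 3 poly(A) sites, all downstream of the annotated end, the most proximal took 5.89% and 4.24% of the cey-1 reads in N2 and 1.64% and 1.28% in mex-5 RNAi. At this site both libraries of each other group, the mex-6(pk440) mutant among them, also lay below both N2 libraries. The share was 2.91% and 1.40% in pos-1 RNAi and 3.77% and 2.04% in gld-3 RNAi. In gld-2 RNAi it was 2.82% and 2.33%, and in mex-6(pk440) 2.84% and 2.87%. Only mex-5 RNAi and N2 were told apart by the test of site use. Site use of cey-1 differed between these groups (edgeR adjusted p = 0.00403), a call lost without N2 replicate 1 (edgeR adjusted p = 0.140) or mex-5 RNAi replicate 2 (0.176). Among the 5 genes it was the only call of site use against N2, while of the 1695 genes tested 3.66% were called in mex-5 RNAi, 1.71% in pos-1 RNAi, 1.47% in gld-3 RNAi, 2.48% in gld-2 RNAi and 0.295% in mex-6(pk440).

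**Figure D4:**
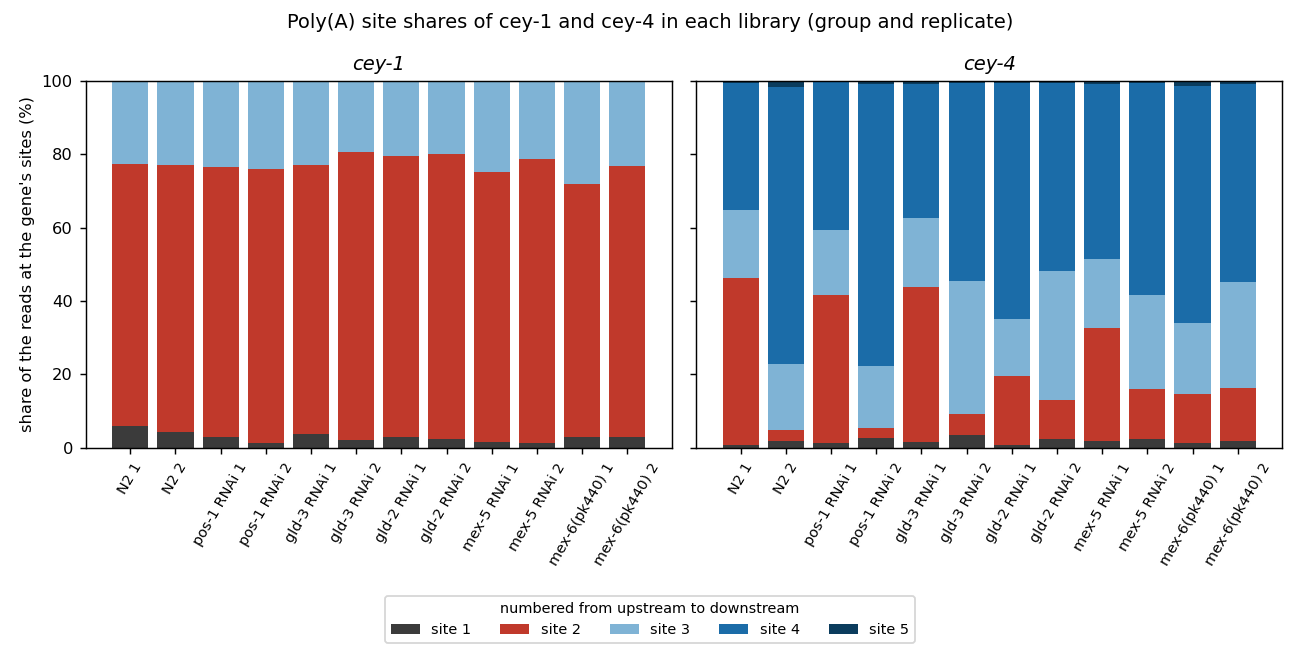
Share of the reads at the poly(A) sites of cey-1 and cey-4, in percent (vertical axis), as 1 stacked bar per library (group and replicate), with sites numbered from upstream to downstream. The first cey-1 site has its highest shares in both N2 libraries, at 5.89% and 4.24%, against 1.64% and 1.28% in mex-5 RNAi. The second cey-4 site ranges from 2.74% to 45.6%.

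The fourth Y-box gene, cey-4 (NM_066992, chrIII:10867061-10868520, minus strand), was called in no comparison with N2 in level, tail or site use. Its level was 999 and 615 CPM in N2, 1000.4 and 630.3 in pos-1 RNAi, 948 and 776 in gld-3 RNAi, 549 and 581 in gld-2 RNAi, 554 and 637 in mex-5 RNAi, and 569.8 and 825 in mex-6(pk440). The replicates of N2 and pos-1 RNAi lay further apart than most groups did. The log2 difference of gld-2 RNAi from N2 was -0.51 (SE 0.28; edgeR adjusted p = 0.182), and the F test over the 6 groups gave an edgeR adjusted p of 0.283. With no low-count filter that F test did call the level of cey-4 (edgeR adjusted p = 0.00858). The cey-4 tail was 44.3 and 43.1 nt in N2, 45.7 and 45.1 nt in pos-1 RNAi, 44.2 and 50.9 nt in gld-3 RNAi, 47.2 and 50.3 nt in gld-2 RNAi, 40.4 and 47.6 nt in mex-5 RNAi, and 42.1 and 44.6 nt in mex-6(pk440). The largest of these tail differences from N2 was 5.07 nt, in gld-2 RNAi (limma adjusted p = 0.334).

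Of the 5 poly(A) sites of cey-4, the second, at chrIII:10866999-10867099, spans the annotated end. It took 45.6% and 2.88% of the cey-4 reads in the N2 replicates, 40.2% and 2.74% in pos-1 RNAi, 42.3% and 5.87% in gld-3 RNAi, 18.98% and 10.7% in gld-2 RNAi, 30.8% and 13.7% in mex-5 RNAi, and 13.2% and 14.4% in mex-6(pk440). In N2, pos-1 RNAi and gld-3 RNAi replicate 1 was far above replicate 2. A tail length was recorded at this site in only 3 of 12 libraries, although it held 98 to 4504 reads in each. On the reads of downstream sites alone, a choice made after seeing these shares, the log2 difference of cey-4 in gld-2 RNAi was -0.26 (edgeR adjusted p = 0.414), and that of cey-3 was -2.55.

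Against N2, pos-1 RNAi called 2 of the 5 genes in level, cey-1 higher as given above and cey-3 lower, while 12.2% of all genes tested for level were called. The level of cey-3 fell by 0.90 on the log2 scale (SE 0.25; edgeR adjusted p = 0.0287), to 53.4% of N2, beside a median of -0.09 over all genes tested. This call was lost without N2 replicate 2, where the log2 difference was -0.44 (edgeR adjusted p = 0.383), and without pos-1 RNAi replicate 1 (0.166), pos-1 RNAi replicate 2 (0.148), gld-2 RNAi replicate 1 (0.0523), gld-2 RNAi replicate 2 (0.0557) or mex-6(pk440) replicate 2 (0.0577). In tail length limma called 0 of the 5 genes, 2 at an unadjusted p under 0.05, while 0.0183% of all genes tested for tail length were called. Of all 5471 genes tested for tail length, 635 had a limma unadjusted p under 0.05. In mex-5 RNAi 1 of the 5 was called in level, cey-1, while 30.8% of all genes were, and limma called 0 in tail length, 1 at an unadjusted p under 0.05, while 0.402% of all genes were. A limma unadjusted p under 0.05 was met there by 838 of the 5471 genes tested for tail length.

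In gld-3 RNAi edgeR called 0 of the 5 genes in level, 2 at an unadjusted p under 0.05, and DESeq2 called 0, while 8.08% of all genes tested were called by edgeR. Of all 9403 genes tested for level, 2465 had an edgeR unadjusted p under 0.05. The log2 difference of cey-3 was -0.73 (edgeR adjusted p = 0.0832). In tail length limma called 0 in gld-3 RNAi, 3 at an unadjusted p under 0.05, while 0.0183% of all genes were called. A limma unadjusted p under 0.05 was met by 841 of all 5471 genes tested for tail length. The difference of the car-1 tail from N2 was -7.80 nt (limma adjusted p = 0.158), and once each library was centred on its median tail the difference was -10.3 nt (limma adjusted p = 0.0211). In mex-6(pk440) edgeR called 0 in level, 0 at an unadjusted p under 0.05, and DESeq2 called 0, while 0.0213% of all genes were called. Limma called 0 in tail length there, 1 at an unadjusted p under 0.05, while 0% of all genes were called. Over all genes in mex-6(pk440), an unadjusted p under 0.05 was met by 860 of 9403 in level (edgeR). In tail length it was met by 195 of 5471 (limma).

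**Figure D5:**
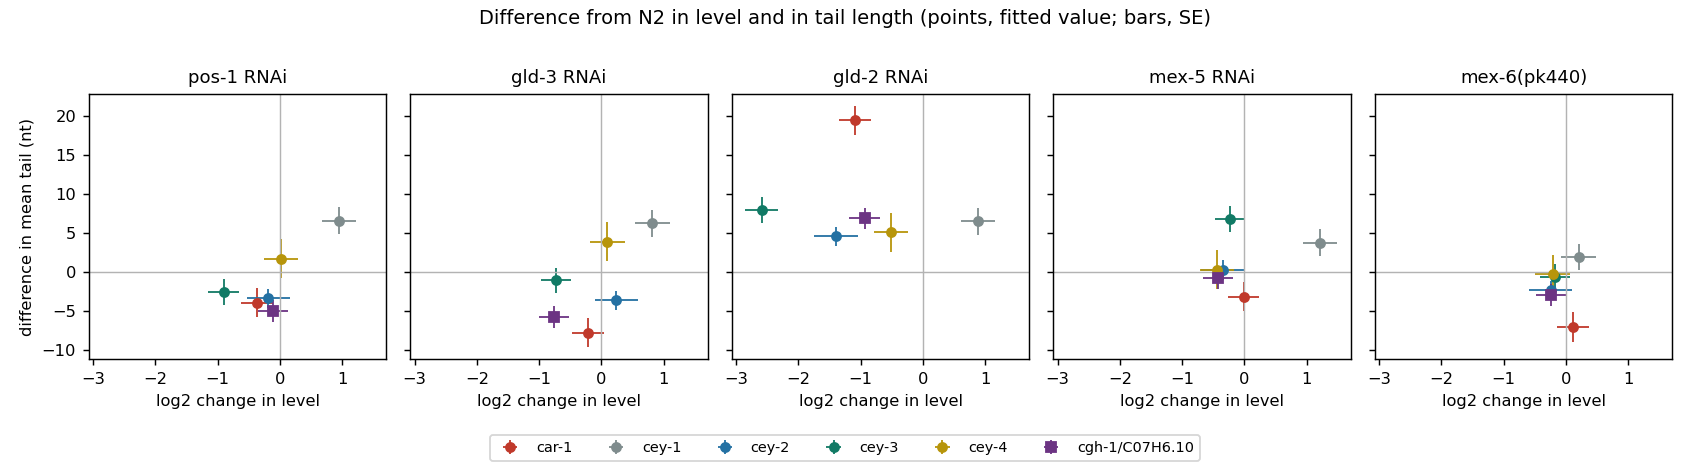
Fitted differences from N2 in each of the 5 other groups, with the log2 change in level on the horizontal axis, the difference in mean tail (nt) on the vertical axis, bars of 1 SE and 1 point per gene, the merged cgh-1 feature as a square. The gld-2 RNAi group holds both the lowest log2 level, -2.59 for cey-3, and the largest difference in tail, 19.4 nt for car-1.

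Between the 10 pairs of groups other than those with N2, 12 of 50 tests of level were called, 11 of the 20 tests with gld-2 RNAi and 1 of the 30 without it. Of all genes tested for level, the gld-2 RNAi group had 26.5% called against pos-1 RNAi, 10.8% against gld-3 RNAi, 21.5% against mex-5 RNAi and 19.7% against mex-6(pk440). Without that group the share was 20.8% for mex-5 RNAi against the mex-6(pk440) mutant, 28.9% for pos-1 RNAi against mex-5 RNAi, 20.6% for gld-3 RNAi against mex-5 RNAi, 4.56% for pos-1 RNAi against gld-3 RNAi, 4.64% for pos-1 RNAi against mex-6(pk440) and 0.51% for gld-3 RNAi against mex-6(pk440). The call outside gld-2 RNAi was cey-1, with a level higher in mex-5 RNAi than in the mex-6(pk440) mutant by 1.01 on the log2 scale (edgeR adjusted p = 0.0188), and it was lost without mex-5 RNAi replicate 2 (0.191) or mex-6(pk440) replicate 1 (0.183). Without gld-2 RNAi replicate 1 the 12 calls came to 5, and without gld-2 RNAi replicate 2 to 7. Tail length gave 12 of 50 calls, 10 of the 20 with gld-2 RNAi and 2 of the 30 without, the latter both of cey-3. Of all genes tested for tails, the gld-2 RNAi group had 0.95% called against pos-1 RNAi, 0.567% against gld-3 RNAi, 1.1% against mex-5 RNAi and 1.59% against mex-6(pk440). Without it the share was 0.841% for pos-1 RNAi and 1.68% for gld-3 RNAi, each against mex-5 RNAi, 0.0731% for mex-5 RNAi against the mex-6(pk440) mutant, 0.274% for pos-1 RNAi against gld-3 RNAi, 0.0183% for gld-3 RNAi against mex-6(pk440) and 0% for pos-1 RNAi against mex-6(pk440). Without either gld-2 RNAi library the 12 tail calls came to 4, without either pos-1 RNAi library to 6, and without either mex-6(pk440) library to 7. The tests with gld-2 RNAi share its libraries.

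Over all 6 groups together, the F test on level called 4 of the 5 genes, all but cey-4, while 44.5% of all genes tested were called. The adjusted p by edgeR was 9.61e-05 for cey-3 and 0.0318 for cey-2, and the calls of car-1 and cey-2 were lost without either gld-2 RNAi library (cey-2 at 0.228 and 0.0878, car-1 at 0.137). The F test on tail length called car-1 (limma adjusted p = 3.05e-04), cey-3 (0.0211) and cey-2 (0.0257), which is 3 of 5, while 1.7% of all genes tested were called. The call of car-1 held without any one library. Those of cey-2 and cey-3 were both lost, leaving 1 of 5, without either pos-1 RNAi, gld-2 RNAi or mex-6(pk440) library or without mex-5 RNAi replicate 2, and cey-2 also without mex-5 RNAi replicate 1, with limma adjusted p of 0.0578 to 0.165.

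Correlations across the 12 libraries describe which genes moved alike, and all of them share the same libraries, depth and groups. In tail length the merged cgh-1 feature followed cey-2 (Pearson r = 0.98, n = 12 libraries) and car-1 (r = 0.93), and car-1 followed cey-2 (r = 0.91), while cey-1 and cey-4, whose tails are near the median of all genes, had r = 0.71 with each other. In level car-1 followed cey-3 (r = 0.94), and cey-1 ran opposite to car-1 (r = -0.50). Genes with only a sequence name were passed over in what follows, among them 7 that ranked above mrpl-11 and cey-3 for the level of car-1. Among the 4511 genes compared, those with a gene name whose level was most like that of cey-3 were oma-2, nos-2 and mrp-4 (each r = 0.96). For car-1 they were tgt-1 (r = 0.96), mrpl-11 (r = 0.94) and cey-3 itself, for cey-2 paqr-1 (r = 0.94), inx-22 (r = 0.93) and hus-1 (r = 0.92), for cey-1 dhs-29, let-4 and pmk-3 (each r = 0.95), and for cey-4 tbb-2 (r = 0.93), mog-3 (r = 0.92) and skpt-1 (r = 0.91). In tail length, among 3249 genes, the closest to car-1 were daf-21 (r = 0.94), pfn-1 (r = 0.93) and mrp-4 (r = 0.92), the closest to cey-2 were cpn-1 (r = 0.97), hsp-6 (r = 0.95) and syp-4 (r = 0.94), and the closest to cey-3 were eat-6 (r = 0.95), enol-1 (r = 0.93) and syp-4 (r = 0.92).

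Genes that act beside CGH-1 and CAR-1 were read as 3 lists. Of 13 genes of decapping and 5'-to-3' decay, 8 had a feature of their own and were tested, and patr-1, the PAT1 homolog that activates decapping, was the only one called, while 27.2% of all genes were called in gld-2 RNAi and 30.8% in mex-5 RNAi. Its level was 173 and 165 CPM in N2, 94.5 and 97.8 CPM in gld-2 RNAi and 98.2 and 112 CPM in mex-5 RNAi. All 4 knockdown libraries lay below both N2 libraries. The level of patr-1 fell by 0.82 on the log2 scale in gld-2 RNAi (SE 0.20; edgeR adjusted p = 0.00994) and by 0.69 in mex-5 RNAi (SE 0.20; edgeR adjusted p = 0.0177). Each call was lost without N2 replicate 1 or without either library of its own RNAi group, at edgeR adjusted p of up to 0.108 and 0.105. In pos-1 RNAi, gld-3 RNAi and mex-6(pk440) edgeR called 0 of the 8, and 0, 1 and 0 at an unadjusted p under 0.05. Of all 9403 genes tested for level, 2511, 2465 and 860 had such a p in these groups. The median log2 difference of the 8 in gld-2 RNAi was -0.21, beside -0.01 over all genes.

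Of 15 cap-binding proteins and repression partners, 14 were tested. In gld-2 RNAi 4 fell and 1 rose in level, in mex-5 RNAi 3 fell, in pos-1 RNAi 1 rose, and in gld-3 RNAi and mex-6(pk440) edgeR called 0, with 2 and 0 at an unadjusted p under 0.05. Among all genes 27.2% were called in gld-2 RNAi, 30.8% in mex-5 RNAi and 12.2% in pos-1 RNAi. An edgeR unadjusted p under 0.05 was met by 2465 of all 9403 genes in gld-3 RNAi and by 860 in mex-6(pk440). The genes that fell in gld-2 RNAi were ife-3, ife-1 and ife-5, which encode forms of the cap-binding protein eIF4E, and pqn-59, a homolog of human UBAP2L. The log2 differences there were -1.25 for ife-3 (edgeR adjusted p = 0.00392), -1.37 for ife-1 (0.0122), -1.05 for ife-5 (0.0309) and -0.80 for pqn-59 (0.0166). In mex-5 RNAi ife-3 fell by 1.07 on the log2 scale, ife-1 by 1.15 and ife-5 by 1.03 (edgeR adjusted p = 0.00629, 0.0231 and 0.0342). The gene that rose, outside the naming rule and named after its values were seen, was ain-1, a GW182-family partner of Argonaute proteins, by 0.72 in pos-1 RNAi and 0.61 in gld-2 RNAi on the log2 scale (edgeR adjusted p = 0.0328 and 0.0402). Every one of these calls was lost without at least 1 library of the groups compared, those of ife-3 and ife-1 in gld-2 RNAi without gld-2 RNAi replicate 1 alone (edgeR adjusted p = 0.0709 and 0.162). Reads of ife-5 were few, 30 and 14 in gld-2 RNAi and 20 and 11 in mex-5 RNAi. Both of its calls were also lost with DESeq2 and with no low-count filter. The median of the list in gld-2 RNAi was -0.30.

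Of 12 other DEAD-box helicases, 11 were tested in level. In gld-2 RNAi 3 fell and 2 rose, in gld-3 RNAi 1 fell and 2 rose, in mex-5 RNAi 2 fell, in pos-1 RNAi 1 rose, and in mex-6(pk440) edgeR called 0, with 3 at an unadjusted p under 0.05. Among all genes the shares called were 27.2%, 8.08%, 30.8% and 12.2% in the first 4 of these groups. In mex-6(pk440) 860 of all 9403 genes tested for level had an edgeR unadjusted p under 0.05. The level of mut-14, a helicase of the small RNA mutator complexes, fell by 2.57 on the log2 scale in gld-2 RNAi (SE 0.39; edgeR adjusted p = 7.47e-04), and that of glh-1, a Vasa-like helicase of germ granules, fell by 1.72 in mex-5 RNAi (SE 0.26; edgeR adjusted p = 3.00e-04). Both calls held under all 19 alternatives, though mut-14 had few reads, 12 and 6 in gld-2 RNAi and 78 and 38 in N2. The level of sacy-1, the DDX41 homolog, rose by 1.27 in pos-1 RNAi, 1.47 in gld-3 RNAi and 1.00 in gld-2 RNAi on the log2 scale (edgeR adjusted p = 0.00888, 0.00653 and 0.0165), and each of these was lost without N2 replicate 2, at edgeR adjusted p of up to 0.0795, 0.0811 and 0.127 over the left-out libraries. The level of hel-1, the UAP56 homolog, fell by 0.83 in mex-5 RNAi (edgeR adjusted p = 0.00981, up to 0.0936 with a library left out, lost without N2 replicate 1 or mex-5 RNAi replicate 2, and on downstream sites alone). The other calls, named after their values were seen, were glh-4 (log2 -2.11) and glh-2 (-1.31) lower and the DDX3 homolog laf-1 (1.11) higher in gld-2 RNAi, and laf-1 higher (1.37) and glh-1 lower (-0.91) in gld-3 RNAi. Each was lost when any of 3 or more single libraries was left out, that of glh-1 under 13 of 19 alternatives, and both laf-1 calls also on downstream sites alone. Reads were also few for glh-4, at 40 and 9 in gld-2 RNAi, and for laf-1, at 41 and 15 in N2. The median of the 11 in gld-2 RNAi was -0.53. Over the 28 genes of the 3 lists tested for tail length, limma called 0 of 140 tests against N2, 25 at an unadjusted p under 0.05. Of all 5471 genes tested for tail length, 635 had such a p in pos-1 RNAi and 841 in gld-3 RNAi. The counts were 903 in gld-2 RNAi, 838 in mex-5 RNAi and 195 in mex-6(pk440).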

How the data were processed

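PAT-seq libraries were made from 1 µg of total RNA of early embryos, with fragments of 120 to 300 bases and strand kept, per the labels' protocols. The authors deposited read counts and mean poly(A) tail lengths (a length signal in nt) per gene and per poly(A) peak. Bowtie2 2.2.2 and build ce10 are named in the submitters' processing notes, and the peaks are credited to nesoni, per the file headers; other settings are given neither there nor in the labels. No molecular identifiers are described, so counts include PCR copies. The mex-6 columns are named as RNAi, and the sample titles (mex-6(pk440)) were followed.

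The deposited counts were fitted with edgeR 4.0.16 (quasi-likelihood, TMM, filterByExpr; R 4.3.3) and tails with limma 3.58.1 (eBayes with a trend on log2 mean reads; a tail in all 12 libraries and at least 10 reads), with 1 coefficient per group over all 12 libraries. Site use was tested with diffSpliceDGE on peak counts. Tests were two-sided, with Benjamini-Hochberg adjustment over all genes within a comparison and a threshold of 0.05. CPM use TMM library sizes. Alternatives were other scalings and filters, DESeq2 1.42.0, weights, centring and log2 tails, each library left out, and downstream sites only; the last, centring with scaling, and left-out libraries for site use were added after seeing the data. Named genes were all members, up to 4 called genes per related list by adjusted p, and the 3 features most correlated with each member that carry a gene name. On simulated data with planted changes, the tests of level and tails found most of the larger changes (79 of 97 at 4-fold and 80 of 100 at 20 nt). They missed most of the smaller ones, finding 8 of 93 at 2-fold and 32 of 100 at 10 nt. The test of site use found 33 of 98 changes of 4-fold in 1 peak, and so missed most. All of this was simulated for gld-2 RNAi against N2 alone. For level, 93 and 97 of 8731 genes were changed and the rest left equal. In the data 27.2% of all genes were called in level in that comparison. The shares found in the simulation may therefore differ from those in the data. Each of these tests also made false calls beside the changes found, 13 for level, 8 for tails and 4 for site use. The members and lists were chosen with earlier results of these data known.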

Additional observations from a re-analysis of the deposited data

How the results depend on the processing

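No result changed direction past the threshold under any alternative run. Counts of the 5 genes called in level against N2 moved as follows. For pos-1 RNAi 2 became 1 on the 4 libraries compared alone and 0 to 2 with a library left out. For gld-3 RNAi 0 became 1 with no low-count filter and 1 with the replicate block, and 0 to 1 with a library left out. The left-out range was 2 to 4 for gld-2 RNAi (4 called), 0 to 1 for mex-5 RNAi (1 called) and 2 to 4 for the F test over all groups (4 called). Between the other groups 12 calls became 20 with no low-count filter and 5 to 14 with a library left out. For tails, gld-3 RNAi went from 0 to 1 with centred libraries and to 1 with centring and scaling. In gld-2 RNAi 1 became 2 with at least 50 reads, 2 on log2 tails and 2 with centring and scaling, and 0 to 2 with a library left out. In mex-5 RNAi 0 became 1 on log2 tails and 1 with centring and scaling. With a library left out, the F test on tails called 1 to 3 (3 called), the other pairs 4 to 12 (12 called) and site use in mex-5 RNAi 0 to 1 (1 called). The 22 calls of the related lists became 9 to 25 with a library left out, and their 0 tail calls became 3 with centring and scaling.

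Over all genes, the level counts were 1148 in pos-1 RNAi (355 to 1549 over the alternatives), 760 in gld-3 RNAi (125 to 1279), 2553 in gld-2 RNAi (1183 to 3134), 2900 in mex-5 RNAi (1700 to 3307), 2 in mex-6(pk440) (1 to 172) and 4183 over all groups (2670 to 5861). For tails they were 13 in gld-2 RNAi (0 to 239), 22 in mex-5 RNAi (0 to 310), 1 in gld-3 RNAi (0 to 132), 1 in pos-1 RNAi (0 to 8) and 93 over all groups (12 to 448). With RLE scaling the median of all genes in pos-1 RNAi against N2 was -0.11 in place of -0.09 on the log2 scale. The labels state no pairing behind the shared replicate numbers. In each group, though, replicate 1 had more reads and a lower share of ribosomal RNA than replicate 2. Over 15 pairs of groups, the differences between replicates correlated with a median r of 0.20 in level (-0.15 to 0.46, 9 pairs over 0.1). In tails the median r was 0.01 (-0.15 to 0.25, 5 pairs over 0.1). The replicate block, which the main fit leaves out, changed 48 calls among 212 results into 54, with 1 lost and 7 gained. With 2 libraries per group the spread rests on few values, and a gene that misses the threshold is not shown to be unchanged.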
